A study of Drosophila melanogaster with 2 samples.

Results

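The binding of the forkhead family transcription factor fd96Cb was examined at 8 genes of the Polycomb and trithorax groups, taken by symbol from the 13945 protein-coding genes annotated on the 6 main chromosome arms of Drosophila melanogaster. All 8 symbols, ph-p, ph-d, Pc, Psc, E(z), pho, trx and ash1, matched 1 gene each. For every gene, all peak summits in the gene body and 5 kb on each side were collected. The data came from chromatin immunoprecipitation with sequencing (ChIP-seq) on whole embryos aged 0 to 24 h of a transgenic line that stably carries fd96Cb fused at its C terminus to green fluorescent protein (GFP). Both samples are biological replicates of this 1 group, numbered 2 and 3 in the labels, and both carry the tagged protein, so there was no contrast between conditions. Immunoprecipitation used an anti-GFP antibody per the labels, although their antibody field names fd96Cb. A whole embryo collection of this span mixes all embryonic tissues and stages. The control library was not analysed here, so whether a summit would also appear without the tagged protein was not tested.

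Polycomb group proteins hold genes in a silent state once it has been set, and trithorax group proteins hold genes in an active state. In the fly embryo they are known above all for keeping Hox genes within their segmental domains. Pc, Psc, ph-p and ph-d encode subunits of Polycomb repressive complex PRC1, which ubiquitinates histone H2A and compacts chromatin. E(z) encodes the methyltransferase of PRC2, which methylates histone H3 on a lysine that Pc protein then binds. Pho is a DNA-binding protein of the Polycomb group that helps to bring these complexes to their sites. Trx and Ash1 are histone methyltransferases that oppose them.

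Summits were taken from 4 deposited peak lists. The list of each replicate and a list called on both replicates together held 30000 peaks each. An optimal list of 5743 peaks was drawn with the IDR (irreproducible discovery rate) method, which rates how well the ranks of peaks hold up between replicates. The optimal list was made up of pooled ranks 1 to 5743 without a gap, so 1 rank describes a peak in both, with rank 1 the strongest. A place in it thus does not by itself mean that both replicates listed that peak. The signal value of a peak is the authors' own and its scaling is not given in the sources used here, so values were compared only within a list. Sequencing depth is unknown, because the lists hold no read counts.

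Strong summits lay at or near 7 of these genes, and at 3 of the 8 there was one close to an own start site. Of the 8 genes, 7 had at least 1 IDR summit in the gene body or within 5 kb, against 49.9% of all protein-coding genes. The exception was pho. The gene windows are long, with a median of 20521.5 bp for the 8 genes against 12166 bp for all protein-coding genes, and longer windows hold more summits. Merged, the windows held 18 distinct IDR summits, or 110 per Mb, against 42.9 per Mb over the 6 arms. The ph-p and ph-d windows, which share 3 summits, held 9 of the 18, or 276 per Mb and the windows of the other genes held 68.6 per Mb. An IDR summit within 1 kb of a gene's own transcription start site (TSS) was present at 3 of the 8 genes, ph-p, ph-d and E(z), against 21.9% of all protein-coding genes.

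The summits at these genes were also high in the list. Of the 8 genes, 7 had a summit among the strongest 10% of the list (574 summits), against 9.46% of all protein-coding genes. This limit was chosen after the ranks had been seen. The 7 were all the members with an IDR summit. Over all protein-coding genes, 1319 of the 6962 with an IDR summit in the window had such a strong one. The best ranks were 1 at ash1, 7 at ph-p, 71 at Psc, 82 at Pc, 90 at trx, 99 at ph-d and 258 at E(z). Of the 18 summits, 9 were among the strongest 10%. The genes were chosen with such results known, so these counts describe them and no test of the list was made.

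**Figure D1:**
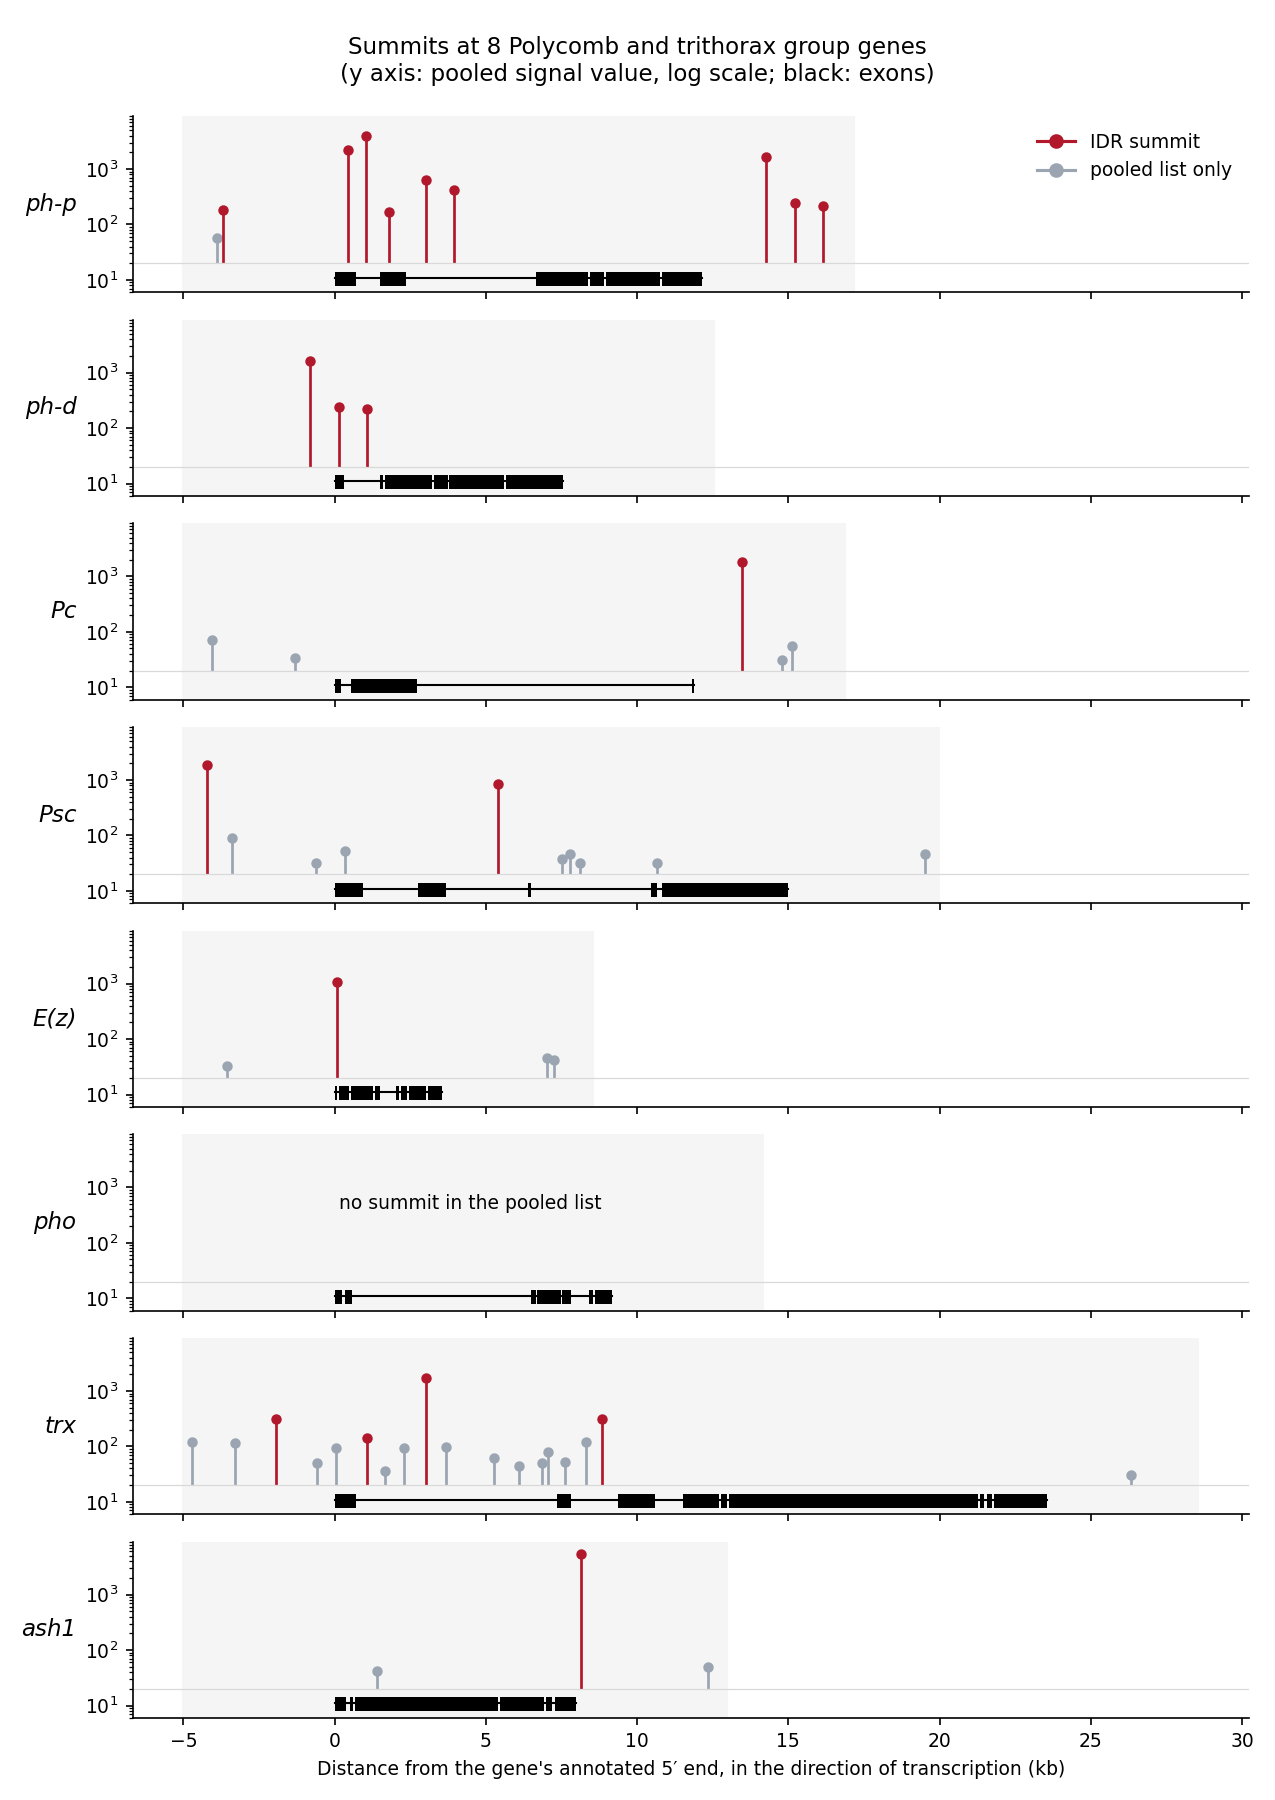
Pooled signal value (log scale) of every summit in the windows of the 8 genes, against the distance in kb from the annotated 5′ end of the gene, with IDR summits in red, summits of the pooled list alone in grey, exons in black and the window shaded. The 7 genes other than pho each carry at least 1 red summit, and at Pc and ash1 the red summit stands beyond the 3′ end of the gene.

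The densest of these loci was that of ph-p and ph-d, which encode the Polyhomeotic subunits of PRC1 and arose by a tandem duplication. They lie 2923 bp apart on the minus strand of the X, ph-p (FBgn0004861) at 2126210 to 2138371 and ph-d (FBgn0004860) at 2115727 to 2123286 in Release 6 (dm6) coordinates. The ph-p window held 9 IDR summits, a number reached or passed by 0.323% of all protein-coding genes. With ph-d, which had 3, and trx, which had 4, 3 of the 8 genes had 3 or more, against 9.0% of all protein-coding genes. The 3 of ph-d are also counted among the 9 of ph-p. The trx window is 33546 bp long, against a median of 12166 bp for all protein-coding genes.

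The strongest summit of the locus ranked 7 in the pooled list (X, 2137142 to 2137580, signal 3982.1). It ranked 4 in replicate 2 with a signal of 1623.5 and 7 in replicate 3 with a signal of 2411.6. It lay in an intron of ph-p, at -489 bp from an internal TSS (negative is upstream). A second summit of ph-p stood 570 bp farther upstream, in an exon annotated as 5′ UTR (2137666 to 2138120, signal 2228.3), at rank 36 in the pooled list, 51 in replicate 2 and 32 in replicate 3. Both summits thus stood near the top of either replicate list.

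Weaker IDR summits followed downstream in ph-p. Introns held summits of rank 738 (signal 627.7, ranks 843 in replicate 2 and 711 in replicate 3) and of rank 1369 (signal 422.8, ranks 1525 and 1357 in replicates 2 and 3). One of rank 4422 lay 47 bp downstream of a ph-p TSS (signal 165.7, ranks 2573 in replicate 2 and 5368 in replicate 3). One of rank 4004 lay on the upstream side, 571 bp into the neighbouring gene D2hgdh and at -3689 bp from the start of ph-p (signal 182.5, ranks 4377 and 4317 in replicates 2 and 3). The replicates placed these summits alike, apart from that of rank 4422.

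The strongest summit at ph-d ranked 99 (2123875 to 2124402, signal 1621.5), with ranks 118 in replicate 2 (signal 581.1) and 92 in replicate 3 (signal 1046.7). It lay in the intergenic stretch between both genes, 808 bp upstream of the ph-d start. A summit of rank 2886 stood 146 bp downstream of that start in the 5′ UTR (signal 244.7, ranks 2813 in replicate 2 and 3111 in replicate 3), and one of rank 3313 in an intron (signal 217.4). The summit of rank 3313 ranked 2609 in replicate 3 and had no summit within 100 bp in replicate 2.

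The duplication allowed the copies to be compared at the sequence level. Alignment of the ph-d with the ph-p region gave 8 collinear blocks, the longest of 3999 aligned columns at 94.4% identity. The blocks covered 32.5% of the merged ph windows. None of the 9 IDR summits of these windows lay inside a block. This count used the summit position alone. The peaks of rank 7, 36 and 99 themselves reached into duplicated blocks on both sides of their summits. Those of rank 2886 and 4422 also reached into a block, on the upstream side. In the longest block only 36.9% of 31-base words of the ph-d copy and 36.3% of the ph-p copy occurred once on the 6 arms, so reads there may not have been placed in 1 copy, and how such reads were treated is not given. The blocks around the start sites were more distinct, with 79.2% unique words in the block that holds the ph-d start and 100% in the 4 that follow upstream. In each replicate list a second summit stood upstream of ph-d, at -1031 bp from its start in replicate 2 (rank 2657) and at -1023 bp in replicate 3 (rank 2277). It lay inside a duplicated block, with no summit of the pooled list within 200 bp of it. Both positions fell within the pooled peak of rank 99 (2123875 to 2124402), so they mark a second summit in that peak.

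The ph-d start and an internal start of ph-p lie in the same block, 97 and 100 bp from its edge, and served as a common origin. From there the summits of rank 7 and 36 lay at -489 and -1059 bp in ph-p, and that of rank 99 at -808 bp in ph-d. The summit of rank 36 in ph-p and that of rank 99 in ph-d lay between the same pair of blocks, 177 bp and 144 bp past the one nearer to the start, in stretches of 216 bp and 311 bp in which no duplicated sequence was found at the setting used. The summit of rank 7 had no such counterpart. It lay 83 bp past the block that holds the start, in a stretch of 211 bases present between the blocks of ph-p, where ph-d has 18 bases. Both stretches are shown because the strongest summit of the locus sits in the part that the copies do not share. They read 5′ to 3′ on the plus strand of dm6, opposite to transcription, at chrX:2137262-2137472 for ph-p and chrX:2123694-2123711 for ph-d, and capitals mark matches to 1 of the 4 forkhead patterns, which are GTAAACA, with its close relatives GTAAATA, then also ATAAACA, and lastly the string ATAAATA, on either strand:
ph-p: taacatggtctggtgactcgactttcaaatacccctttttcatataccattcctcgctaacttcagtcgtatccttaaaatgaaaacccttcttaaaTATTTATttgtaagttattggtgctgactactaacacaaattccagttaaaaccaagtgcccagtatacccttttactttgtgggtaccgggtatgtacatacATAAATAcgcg
ph-d: aaataaaatacccgagac
The ph-p stretch held 2 such matches and the ph-d stretch none. The 101 bases centred on the ph-d summit of rank 99, at chrX:2124044-2124144, are given for comparison on the same strand and held no match:
ph-d, rank 99: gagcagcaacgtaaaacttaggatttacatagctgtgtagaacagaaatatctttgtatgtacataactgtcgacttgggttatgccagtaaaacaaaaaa

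**Figure D2:**
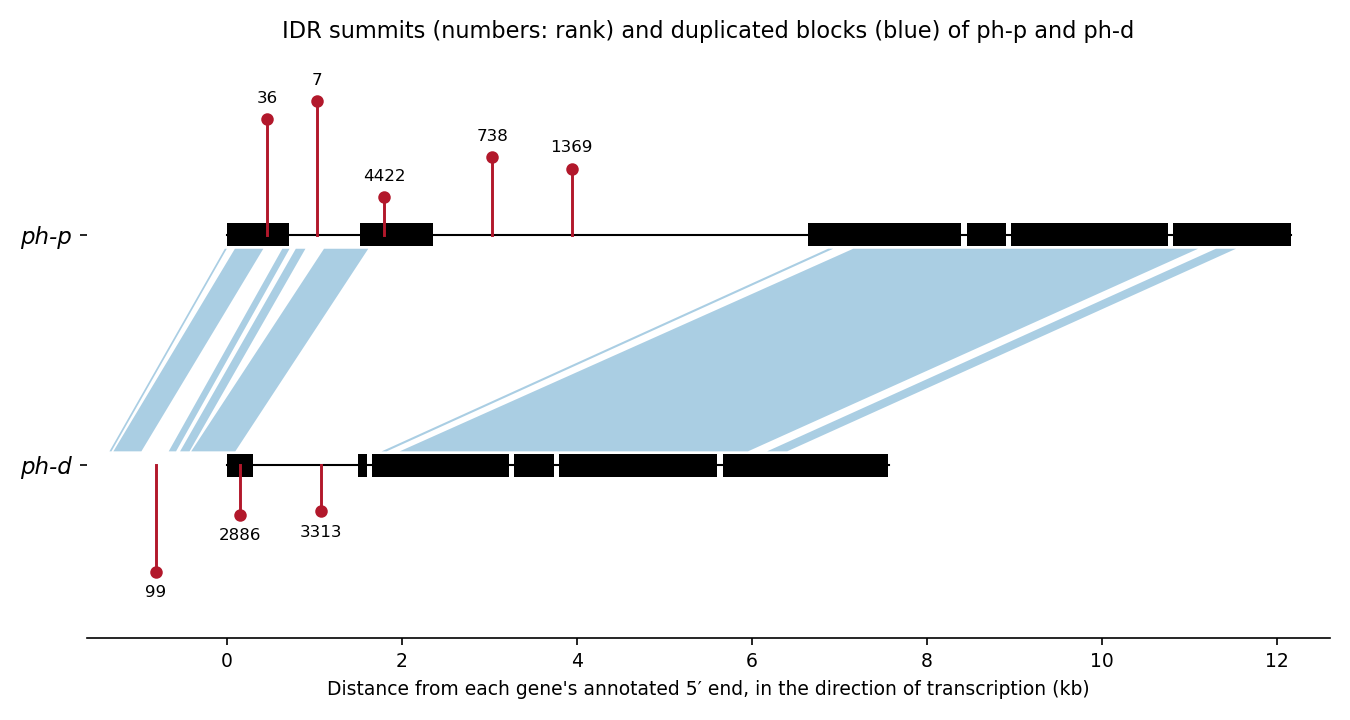
IDR summits at ph-p (above) and ph-d (below), numbered by rank and with stem height on a log scale of the pooled signal, against the distance in kb from the annotated 5′ end of each gene. Exons are black, and blue bands join the 8 duplicated blocks; no summit stands on a band, and the summits of rank 36 and 99 stand in the same white gap between bands.

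At the other PRC1 genes the strong summits were distant from the start of the gene. Pc (FBgn0003042, 3L, 21306138 to 21318020, minus strand) encodes the chromodomain subunit of PRC1 for which the group is named. It had 1 IDR summit, of rank 82 (21304390 to 21304758, signal 1778.7), which ranked 138 in replicate 2 (signal 535.0) and 61 in replicate 3 (signal 1243.2). The summit lay 1573 bp beyond the 3′ end of Pc, 13455 bp from its start, in an intron of CG11309 and 93 bp downstream of the CG11309 TSS. No summit of the pooled list lay in the Pc gene body, where replicate 2 alone listed 2, at ranks 26281 and 29166. Annotated transposons, among them a roo element inside the gene model, made up 41.6% of the Pc window, and 58.6% of its 31-base words were unique, against 5.93% and 87.4% over the 6 arms. The part of these repeats in the empty gene body was not tested. The bases around the summit, without annotated UTR, are shown because they hold a forkhead pattern close to the summit of a strong peak (chr3L:21304515-21304608, plus strand, capitals as above):
Pc: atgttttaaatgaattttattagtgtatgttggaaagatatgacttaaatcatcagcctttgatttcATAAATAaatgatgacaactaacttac

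Psc (FBgn0005624, 2R, 12965997 to 12980994, minus strand) encodes a RING finger subunit of PRC1. Its strongest summit ranked 71 in the pooled list (12985007 to 12985405, signal 1827.8), 127 in replicate 2 (signal 560.7) and 56 in replicate 3 (signal 1260.3). This summit lay 4204 bp upstream of Psc and 169 bp upstream of the long noncoding RNA gene lncRNA:CR44339, in the 15506 bp between Psc and the related PRC1 gene Su(z)2 (2R, 12996501 to 13007911). A second IDR summit lay in an intron, 5070 bp from the nearer start, at rank 402 (12975410 to 12975739, signal 863.4, ranks 443 in replicate 2 and 385 in replicate 3). Around the Psc starts the pooled list held only a summit of rank 14451, 7 bp downstream of a TSS (signal 51.5), and one of rank 29419. Replicate 2 had no summit within 100 bp of either. The summit at 4204 bp was the one nearest to the limit of 5 kb from inside over the 8 genes, and the next IDR summit beyond the limit at Psc lay 6537 bp from the gene.

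E(z) was the member with the plainest promoter summit. The gene (FBgn0000629, 3L, 10634575 to 10638130, minus strand) had 1 IDR summit, of rank 258 (10637828 to 10638223, signal 1065.9), 73 bp downstream of its more upstream TSS in the 5′ UTR. It ranked 239 in replicate 2 (signal 423.5) and 285 in replicate 3 (signal 648.4). The 101 bases around it had a GC content of 24.8% and 3 matches to the forkhead patterns. The other 3 pooled summits of the E(z) window were weak, with ranks from 16842 to 27685, and each was matched in 1 replicate list only.

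No summit of the IDR or the pooled list lay in the window of pho (FBgn0002521, chromosome 4, 1172469 to 1181628, minus strand), and none of replicate 2. A pooled summit was present in the gene window of 87.2% of all protein-coding genes and of 72.5% of the 80 genes of chromosome 4, and an IDR summit at 27.5% of those 80. Replicate 3 alone listed a summit 242 bp upstream of the pho TSS (1181675 to 1182064, signal 98.9), at rank 4751, and a weaker one of rank 24928. The nearest summit of the pooled list was 16006 bp from the gene, at rank 5233. The replicates differed over the whole of chromosome 4, with 42 peaks listed in replicate 2 and 404 in replicate 3. Annotated transposons made up 44.4% of the pho window, against 24.8% of chromosome 4, and 86.8% of its 31-base words were unique. The part of the difference between replicates or of the transposons in the absence of summits at pho was not tested.

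Among the trithorax group genes, trx had many summits in and upstream of its long introns. The gene (FBgn0003862, 3R, 14263358 to 14286903, minus strand) encodes a SET domain histone methyltransferase. Its window held 4 IDR summits and 14 further summits of the pooled list. The strongest lay in an intron 3033 bp downstream of the TSS, at rank 90 (14283685 to 14284070, signal 1726.0), and ranked 82 in replicate 2 (signal 668.9) and 88 in replicate 3 (signal 1057.2). One of rank 2128 lay 8832 bp downstream (signal 308.5, ranks 2840 in replicate 2 and 1727 in replicate 3). One of rank 2132 lay 1941 bp upstream of trx, but only -227 bp from the start of the next gene, red (signal 307.6, ranks 3324 and 1825 in replicates 2 and 3).

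The fourth IDR summit of trx, of rank 5180 (14285642 to 14286031, signal 142.5), lay 1066 bp downstream of its TSS, just outside the promoter limit. It ranked 3110 in replicate 2 and 8957 in replicate 3. It was the member summit nearest to the end of the IDR list, and the nearest one beyond that end, of rank 6153 (signal 120.1), also belonged to the trx window. A weaker summit 39 bp downstream of the trx TSS had rank 7989 in the pooled list and 5772 in replicate 3, with none in replicate 2. With Psc and the 3 genes named above, trx thus made 5 of 8 with any pooled summit within 1 kb of an own TSS, against 55.9% of all protein-coding genes. The sequences at the strongest and at the most AT-rich of the intron summits, at chr3R:14283820-14283920 and chr3R:14278021-14278121 on the plus strand, show that neither held a forkhead pattern, and capitals mark the homeodomain pattern TAATTA:
trx, rank 90: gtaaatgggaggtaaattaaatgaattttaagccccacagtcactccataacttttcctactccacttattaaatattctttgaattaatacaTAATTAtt
trx, rank 2128: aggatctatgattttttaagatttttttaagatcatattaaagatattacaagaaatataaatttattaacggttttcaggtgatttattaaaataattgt
Their GC contents were 27.7% and 17.8%.

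The window of ash1 (FBgn0005386, 3L, 19590773 to 19598755, minus strand), which encodes another SET domain methyltransferase, held the strongest summit of the whole list. It ranked 1 in the pooled list (19590399 to 19590830, signal 5351.0), in replicate 2 (signal 2207.5) and in replicate 3 (signal 3150.6). The summit lay 154 bp beyond the 3′ end of ash1 and 8136 bp from its start, and its nearest TSS was that of CG14100, 95 bp away. In the ash1 gene body the pooled list held 1 summit, of rank 19452 (signal 41.5) and in a coding exon, which was absent from replicate 3. The 101 bases at the summit of rank 1 are shown because they lie under the peak with the highest signal value in each list and held neither a forkhead nor a homeodomain pattern (chr3L:19590569-19590669, plus strand):
ash1, rank 1: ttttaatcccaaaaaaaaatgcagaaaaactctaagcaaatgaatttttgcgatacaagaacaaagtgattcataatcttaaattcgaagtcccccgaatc

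Over all 18 IDR summits, the nearest TSS was that of one of the 8 genes in 13 cases. In the other 5 it was that of D2hgdh, CG11309, lncRNA:CR44339, red or CG14100. By annotation 10 summits lay in introns, 4 in exons annotated as 5′ UTR and 4 in intergenic sequence, with none in coding exons, where the shares over all 5743 IDR summits were 52.1%, 4.39%, 39.4% and 0.209%. These summits are not independent, since 9 belong to the ph locus.

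The replicates held most of these summits in common. A summit among the strongest 5743 of both replicate lists lay within 100 bp of 16 of the 18, against 74.5% of all IDR summits. The pooled list was made from both replicates, so this agreement is partly built in. The exceptions were the ph-d summit of rank 3313, missing from replicate 2, and the trx summit of rank 5180, which stood lower in replicate 3. The best ranks at Psc and Pc were lower in replicate 2 (127 and 138) than in replicate 3 (56 and 61), while those at E(z) and trx were close. Of the 32 summits of the pooled list alone, 7 were matched in both replicate lists, 7 in replicate 2 only, 13 in replicate 3 only and 5 in neither. The weak summits around these genes were thus mostly seen in 1 replicate. The same shares over all pooled summits beyond rank 5743 were not computed. These counts therefore do not show whether the weak summits here differ from the rest of the pooled list.

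**Figure D3:**
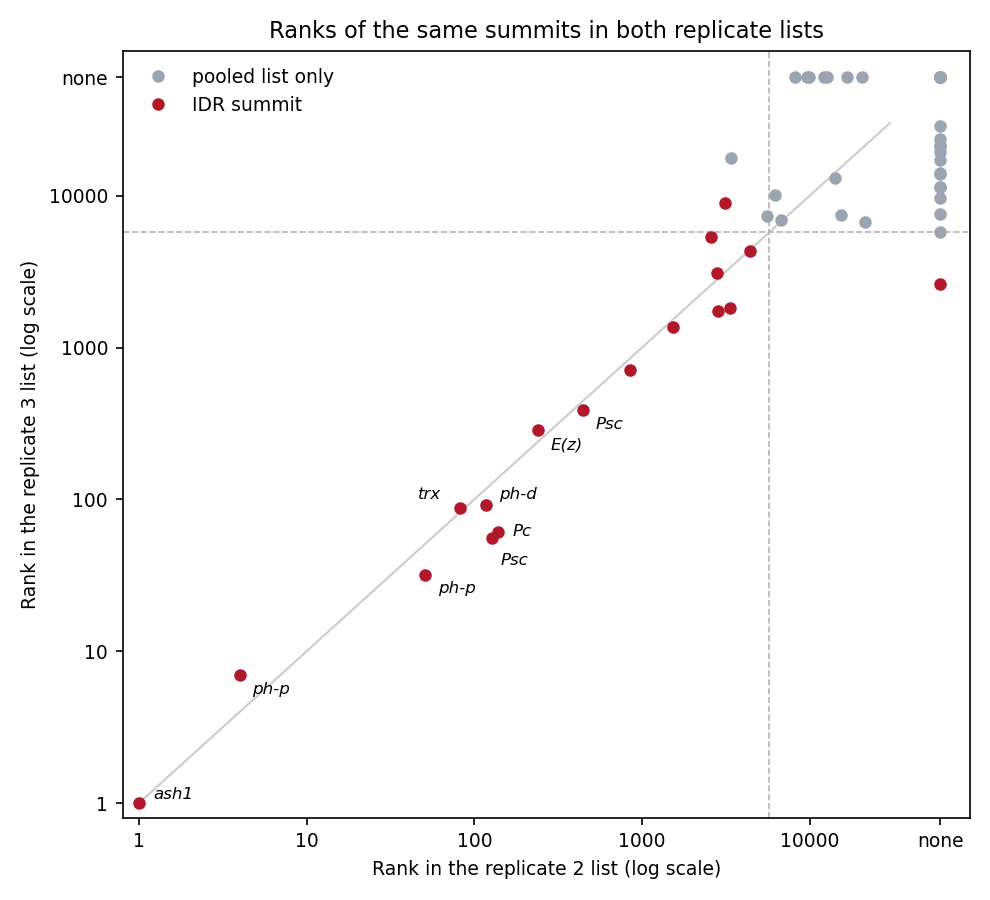
Rank in the replicate 2 list (x) and in the replicate 3 list (y) of the 50 pooled summits in the windows of the 8 genes, on log axes with rank 1 the strongest, and with summits that had none within 100 bp placed at "none". Dashed lines mark rank 5743; the labelled red summits, from ash1 at rank 1 to Psc at rank 443 in replicate 2, lie close to the diagonal, and the grey summits of the pooled list alone scatter.

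Base composition at the summits was that of the IDR list as a whole. GC content within 50 bp ranged from 17.8% to 46.5% over the 18 summits with a median of 29.7%, and the median over all IDR summits was also 29.7%. A forkhead pattern on either strand occurred within 50 bp of 7 of the 18 summits, against 25.5% of all IDR summits, 15.8% of pooled summits beyond rank 5743 and 15.1% of windows of equal length just upstream of 19607 annotated TSSs. The 7 were at ph-d (ranks 2886 and 3313), ph-p (ranks 7, 36 and 4004), Pc and E(z). The strict form GTAAACA occurred at none of the 18, and at 2.86% of all IDR summits.

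The other patterns were each found at 3 or fewer of these summits. The homeodomain pattern TAATTA occurred at 3 of the 18 (ph-p rank 1369, Psc rank 71 and trx rank 90), or 16.7%, against 12.5% of all IDR summits, 6.56% of pooled summits beyond rank 5743 and 5.24% of TSS windows. The core of the Pho binding site, GCCAT, occurred at 1, the trx summit of rank 5180, against 11.7% of IDR summits and 17.3% of TSS windows. GAGAG, the pattern of GAGA factor, the alternative forkhead pattern GACGC, the DREF core ATCGAT and the Zelda pattern CAGGTAG occurred at none, against 7.75%, 2.72%, 2.94% and 0.47% of IDR summits. With 18 summits, shares as low as these leave few or no matches to be found. All patterns were searched on both strands, and each GTAAACA match is also counted among the 4 forkhead patterns. A match is a string of letters, and none of these counts shows a bound site.

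The rest of the Polycomb and trithorax machinery was examined through a list of 64 genes in 6 groups of complexes, which includes the 8. Of these, 63 matched by symbol. An IDR summit within 1 kb of an own TSS was present at 21 of the 63, or at 18 of the 55 without the 8 genes, against 21.9% of all protein-coding genes. An IDR summit in the gene window was present at 43 of the 63, or 36 of the 55, against 49.9%. By complex, promoter summits were found at 4 of 10 genes of PRC1 and its variants, 2 of 8 of PRC2, 5 of 11 of Pho-RC, PR-DUB and recruiters, 4 of 14 of the COMPASS family, 0 of 2 of the ASH1 complex and 6 of 18 of the SWI/SNF and other trithorax group genes.

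The 6 strongest promoter summits of that list were at ph-p, ph-d, brm, Dsp1, E(z) and Trl. Brm is the ATPase of the fly SWI/SNF remodeller, and its summit ranked 145 (3L, 15982825 to 15983162, signal 1381.5), 106 in replicate 2 and 196 in replicate 3, with the start of Arl1 nearer than that of brm. Dsp1 encodes an HMG box protein, with a summit of rank 240 (X, 16332793 to 16333202, signal 1103.1), 231 in replicate 2 and 245 in replicate 3, nearest to CG9921. Trl encodes GAGA factor, with a promoter summit of rank 1068 (3L, 14757085 to 14757326, signal 500.6), 838 in replicate 2 and 1278 in replicate 3. At both brm and Dsp1 the nearest start thus belonged to another gene, as at Pc and ash1. Chosen after their values were seen, the best ranks in the gene windows of the other genes were 6 at Caf1-55, 19 at Trl, 49 at osa and 75 at phol. None of these summits lay within 1 kb of an own TSS of the gene named. That of rank 6 is also the summit in the body or promoter of Art3 and mRpS10. Among PRC1 and PRC2 genes the windows without an IDR summit were also named from their values: at the PRC1 genes Sce and Scm and at the PRC2 genes esc, escl and Jarid2 no IDR summit lay in the window.

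**Figure D4:**
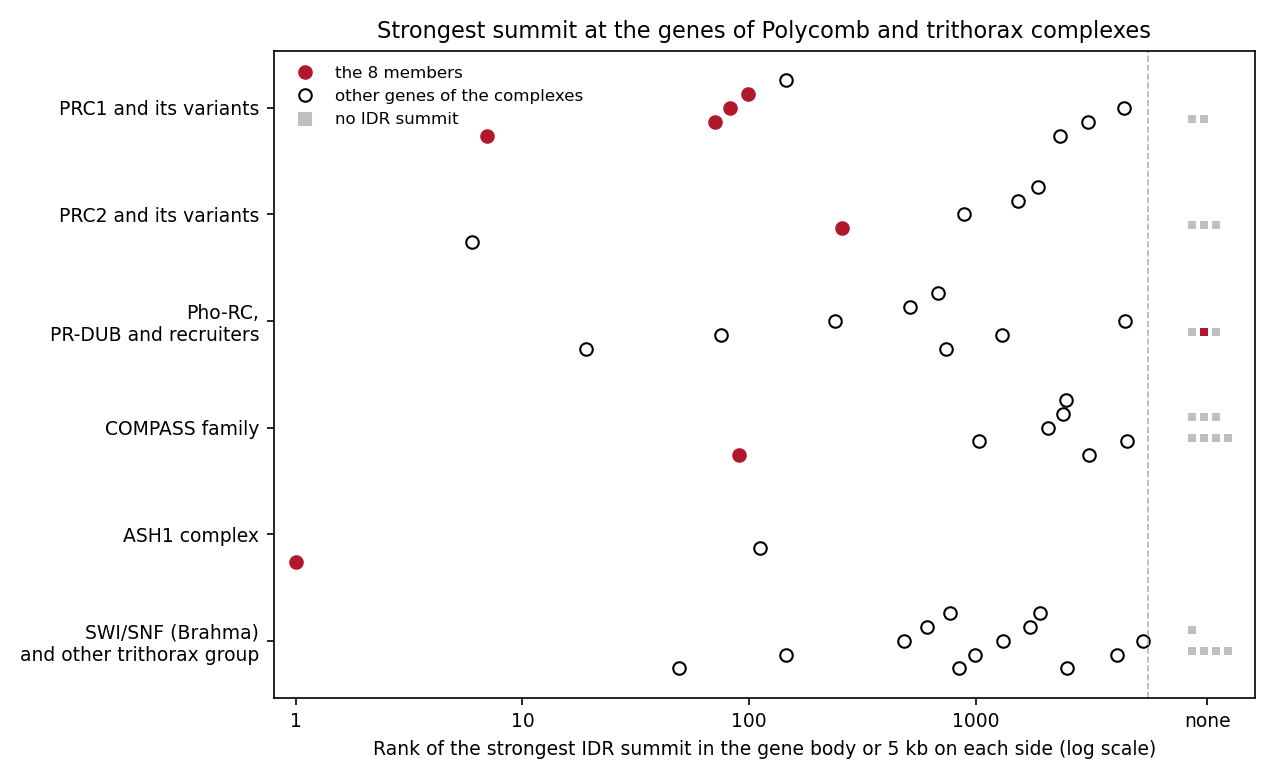
Rank (log scale) of the strongest IDR summit in the gene body or within 5 kb for the 63 genes of Polycomb and trithorax complexes, with the 8 genes in red, other genes as open circles and genes without an IDR summit as squares on the right; the dashed line marks rank 5743. The red points lie at ranks 1 to 258, and pho is the red square.

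Other genes stood close to these in rank. The likeness was the distance in log10 rank over 3 lists (pooled, replicate 2 and replicate 3) to the strongest IDR summit in the body or promoter of 3405 candidate genes. The closest to the ph-p summit were Art3 and mRpS10, which share 1 summit of rank 6 (distance 0.135). For trx it was Sox14, at rank 87 (distance 0.0365), for E(z) KCNQ and mlt, at rank 254 (0.0115), for ph-d arg and elav, at rank 104 (0.0278), for Psc RasGAP1, at rank 74 (0.0400), and for Pc osp, at rank 91 (0.0616). For ash1 it was the pair Ugalt and eIF2Bbeta, at rank 2 (0.521). CG14100 and CG11309, whose starts lie beside the ash1 and Pc summits themselves, are not among the genes named. Unlike those of the candidates, the summits used for ash1, Pc and Psc lay outside the body and promoter of the gene. These are neighbours in rank and nothing more.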

How the data were processed

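ChIP-seq peak lists in narrowPeak layout were used as the authors deposited them, in dm6 coordinates per the labels. Per the file records deposited with the samples, each replicate list was called on that replicate's alignment with a control, the pooled list on both, and the IDR list was derived from these 3. The signal value and the −log10 q-value of each peak are the authors' own. The sources used here do not give the aligner, peak caller or thresholds, nor how reads that map to several places were handled, and depth is unknown.

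The few summit positions that fell past the end of a peak were set to that end. Genes came from Ensembl release 115 and sequence from RefSeq Release 6. Duplicated blocks were found with blastn 2.17.0 (seed of 11 bases, E-value limit 1e-05) and uniqueness was counted over 31-base words of the 6 arms. Python 3.11.15, numpy 2.4.6, pandas 2.3.3 and matplotlib 3.10.9 were used, and the range queries and the pattern search were checked on simulated data. The members, the gene list and the comparisons were chosen with earlier results of these data known. Named were the 8 genes, the 6 strongest promoter summits of the list, the nearest gene of each IDR summit and the closest genes in rank; further names are marked. With 1 group of 2 samples no condition was compared and no test was run. Whether the replicates came from separate cultures of embryos is given only by the word biological in the labels.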

Additional observations from a re-analysis of the deposited data

How the results depend on the processing

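Of 36 alternatives to the counts above, 34 stayed within 1.5 times the reported count. Among them were windows from the gene body alone to 10 kb, shorter and longer promoter limits, and the stronger part of the IDR list. This limit is wide, and a count of 7 of 8 genes cannot rise beyond it. The gene body alone held a summit at 5 genes, against 7, with Pc and ash1 lost, and 12 summits, against 18. No share over all genes was computed for the gene body. Forkhead patterns occurred at 4 of 18 summits within 25 bp and at 4 of 13 summits of the stronger part of the IDR list, against 7 of 18, and the shorter window and smaller number of summits are part of these settings. Among the strongest 5743 peaks of replicate 3 alone, 8 of the 8 genes had a summit in the window, against 49.3% of all protein-coding genes, and 4 within 1 kb of an own start, with pho added, against 21.6%. In replicate 2 alone these counts were 7, against 49.6%, and 3, against 21.8%. The windows held 19 summits from replicate 3 alone and 21 from replicate 2 alone. Forkhead patterns were then at 10 of 19 and 9 of 21 summits in the same order, and promoter summits at 24 and 21 of the 63 listed genes. For the forkhead counts at changed settings, the share over all summits at the same setting was not computed. They therefore do not show whether these genes differ from the rest of the list. Settings for the strongest 5% and 20% of the list and a blastn seed of 7 bases were chosen after the data were seen, and gave 7 of 8 genes against 5.46% of all protein-coding genes, 7 of 8 against 16.6%, and 0 summits in blocks. No paired analysis was possible because both samples belong to 1 group. With unknown depth, the absence of a summit is the absence of a listed peak and no measure of binding.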

Other observations

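Some summits of the replicate lists had no pooled summit within 100 bp and yet ranked within the strongest 5743 of their list. Among them were the one that both replicates listed at ph-d, inside the pooled peak of rank 99, and that of replicate 3 at pho. In the trx window replicate 2 also listed one at -323 bp from the start of red (3R, 14289893 to 14290262) at rank 4520. There the nearest pooled summit was 128 bp away, and its peak (14290011 to 14290400) covered this position. The remaining summits without a pooled one in these windows ranked from 7072 to 29166, among them 3 of replicate 3 within 1 kb of a Psc or ph-p start, at ranks 19629, 16654 and 15297.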
